A study of Danio rerio with 12 samples.

Results

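The transcripts described here belong to 9 genes of fibroblast growth factor (Fgf) signaling in the zebrafish embryo. They are the ligands fgf3, fgf8a, fgf10a and fgf24, the feedback inhibitors spry2, spry4, dusp6 and il17rd, and the transcription factor etv4. They were found on the array through the RefSeq transcript that each probe names, and where a gene had more than 1 probe the brightest over all arrays was used. They make up 9 of the 10915 named genes on the array, and all 9 were well above background on all 12 arrays, so none was lost to a filter on dim probes.

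Fgf ligands are secreted proteins that bind receptor tyrosine kinases and act through Ras and the MAP kinase cascade. The cascade switches on its own inhibitors, among them Sprouty proteins, the MAP kinase phosphatase Dusp6 and the membrane protein Il17rd, also called Sef, together with ETS transcription factors such as Etv4. For this reason the transcripts of these inhibitors are widely used as a readout of where Fgf signaling is active. In zebrafish embryos the main sources of Fgf include the midbrain-hindbrain boundary, the tailbud, the pectoral fin bud, the otic region and the forming heart.

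Embryos from adult zebrafish of a commercial supplier, with no strain named, received either a morpholino (MO) or a mispair control oligonucleotide (MP) at the one-cell stage. The morpholino pairs with the start codon region of the mRNA of the glucocorticoid receptor (GR), the nuclear receptor for cortisol, and blocks its translation. By the sample labels each embryo received 4.4 ng in 1 nL, and each array measured the RNA of a pool of 25 whole embryos frozen at 24 or 36 hours post fertilization (hpf). There were 3 arrays in each of the 4 groups, from separate breeding events. The comparison of MO with MP asks how transcript levels differ when translation of GR is knocked down.

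The morpholino is shown because it defines the MO groups. The capitals mark the reverse complement of the start codon.
GR morpholino: ctccagtcctccttgatcCATtttg
The sample labels give these 25 bases for the mispair control as well, and the study's methods give a different one, so the sequence of the control stayed unresolved. A morpholino of this kind blocks translation and leaves the mRNA in place, and the GR transcript nr3c1 gave no check of the labels. Its log2 difference of MO from MP was -0.098 at 24 hpf (adjusted p = 0.55, limma) and 0.028 at 36 hpf (adjusted p = 0.95, limma). The study marks nr3c1 as significantly upregulated at 36 hpf in a network of connective tissue development, which these values did not show. The direction of each comparison is that of the labels, and it is opposite to the one the study gives. The study lists spry2 and etv4 as lower in morphants at 24 hpf and lens and muscle genes as higher, where the arrays labelled MO show the reverse, and it reports that quantitative PCR of other embryos at 36 hpf went the way of its array ratios. The study also describes its morphants as slower to develop than usual, and how this bears on the labels was not tested. Whether the array labels or the ratios are exchanged cannot be told from the arrays. MO and MP therefore stand for the arrays so labelled throughout. If the labels were exchanged, every sign of MO against MP and of every interaction would turn. The time comparisons in MO and in MP would then trade places.

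The median raw intensity per array was 35.8 to 172, and 66% to 82.5% of probes were well above background. Levels are given as log2 normalized expression, which is the log2 intensity after division by each array's median over a common set of bright probes, so that 0 is that median and a difference of 1 is a doubling. Levels of different genes were not compared, because each probe has its own brightness. Markers of muscle, neurons, blood, epidermis, lens and pigment cells were well above background on all 12 arrays. In pools of whole embryos, more cells of a type and more RNA per cell cannot be told apart.

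The array that stood furthest apart was the second replicate of MO at 36 hpf. It had the lowest median intensity, 35.8, and its log2 levels differed from those of the other 2 arrays of its group with an SD of 0.976 and 0.878 over genes, against 0.503 between those 2. Over the 9 genes its root mean square difference was 0.508 from the mean of MO at 24 hpf and 0.97 from the mean of the other 2 MO arrays at 36 hpf. Over all 10389 genes the same distances were 0.832 and 0.894, so that by both measures it lay nearer to MO of the earlier time point than to its own group. Over all genes it was not close to either, as the MP arrays at 24 hpf lay 0.804 to 0.892 from the mean of MO at 24 hpf. The other 2 MO arrays at 36 hpf also differed from the rest, with 70.7% and 67.6% of probes well above background against 72.9% to 82.5% in the other 3 groups, and 86 and 130 outlier spots against 5 to 36 on the other 10 arrays. Over all genes the first MO replicate at 36 hpf lay 0.584 from the mean of MP at 24 hpf and 0.641 from the mean of the other 2 arrays of its group, which includes the second replicate. The fitted differences of the 9 genes and the counts of genes passing the threshold at 36 hpf are given with and without the second MO replicate.

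At 24 hpf, 8 of the 9 genes were significantly higher in MO than in MP, and none was lower. The rises ran from 1.46-fold for dusp6 to 3.24-fold for il17rd. The exception was fgf10a, at 1.11-fold (adjusted p = 0.472, limma). In the same test 48.3% of all 10351 genes passed the threshold, an adjusted p of 0.05 by limma with Benjamini-Hochberg adjustment over all genes, and 24.3% passed it as higher in MO. The values of MO and MP did not overlap for the same 8 genes, against 59.8% of all genes. The median log2 difference was 0.865 over the 9 genes and 0.007 over all genes tested. The set was chosen with earlier results of these data known, so its contrast with all genes is a description only. These calls held with each array left out in turn. They did not hold when arrays were scaled to their spiked-in control spots, which moved the median of all genes to -0.427. Then only il17rd passed, 8 of the 9 differences were above 0 with that of fgf10a at -0.280, and all 9 lay above the median of all genes.

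**Figure D1:**
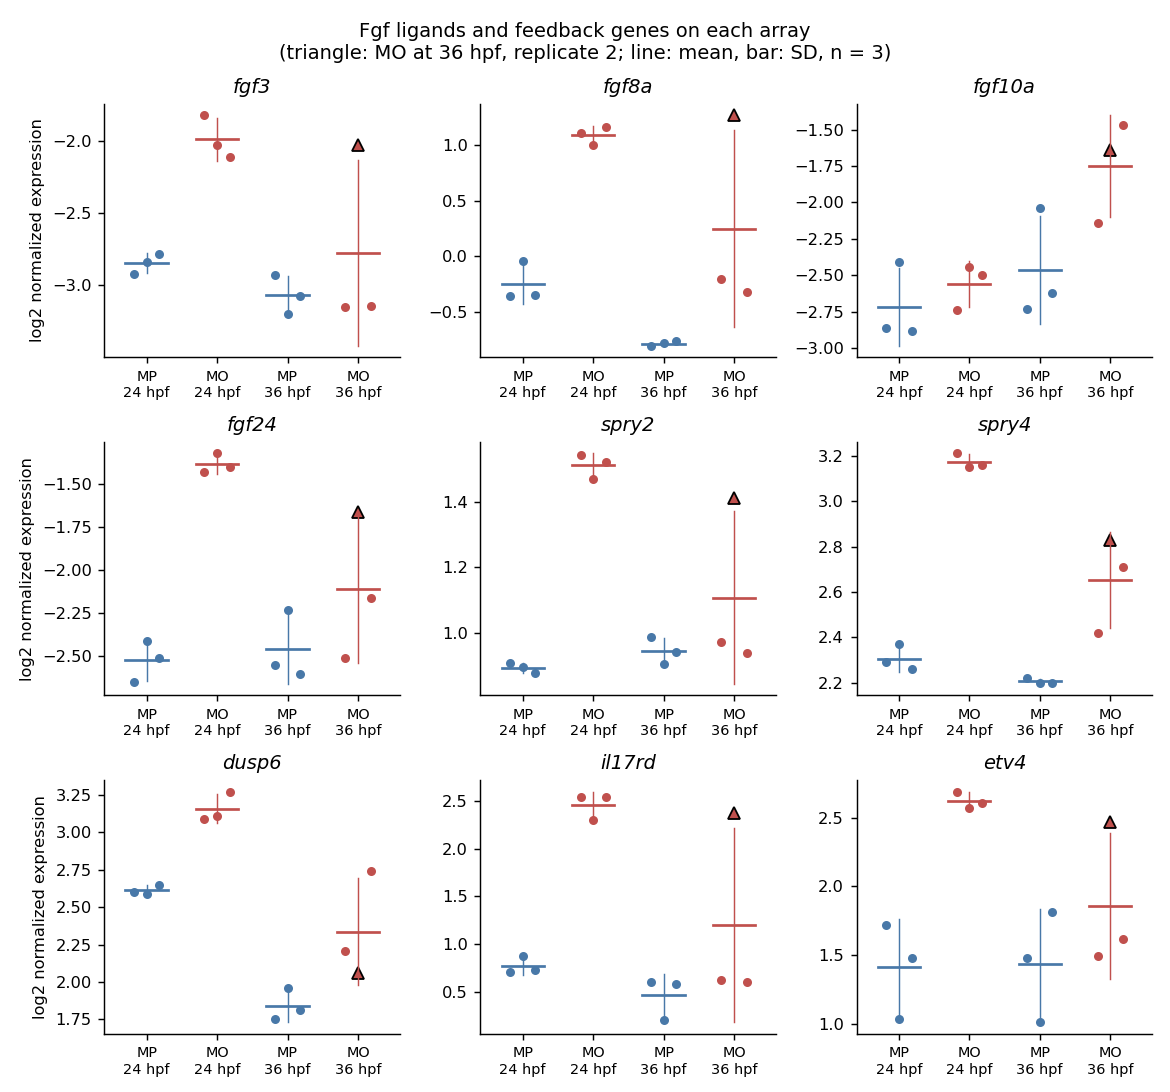
The log2 normalized expression of each of the 9 genes (y axis, its own scale in each panel) on each of the 12 arrays, with MP in blue and MO in red at 24 and 36 hpf (x axis), lines for group means and bars for the SD of 3 arrays. In 8 of 9 panels the 3 MO arrays at 24 hpf lie above all MP arrays of that time, and the second MO replicate at 36 hpf (triangle) lies above the other 2 arrays of its group for every gene but fgf10a and dusp6.

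The ligand fgf8a (probe for NM_131281) is the principal Fgf of the midbrain-hindbrain boundary and is also made in the tailbud and heart field. In MO at 24 hpf its log2 levels were 1.11, 1.00 and 1.16 on the 3 arrays, and in MP they were -0.363, -0.040 and -0.35. The groups did not overlap, and the lowest MO array lay more than 1 log2 unit above the highest MP array. The difference was 1.34 ± 0.11 (SE, 2.54-fold; adjusted p = 3.68e-05, limma). Among the 4 ligands of the set it had the largest change, ranked at 845 of 10351 genes by size. On the 3 slides, each of which carried an MO and an MP array, it was 1.15, 1.51 and 1.36.

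The ligand fgf24 (NM_182871) acts in the mesenchyme of the early pectoral fin bud, upstream of fgf10a. Its levels were -1.43, -1.32 and -1.40 in MO and -2.65, -2.41 and -2.51 in MP at 24 hpf. The spread within each group was narrow beside the gap, and the change was 1.14 ± 0.12 (SE, 2.21-fold; adjusted p = 9.71e-05, limma). The gene fgf10a (NM_182870), which carries the signal on from the fin bud mesenchyme to the ectoderm, gave -2.74, -2.44 and -2.50 in MO and -2.86, -2.41 and -2.88 in MP. Its groups overlapped, the difference was 0.155 ± 0.17 (SE), and on the slides it was -0.334, 0.381 and 0.418. Whether these 2 genes of the fin bud differed from each other in their response was not tested.

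The ligand fgf3 (NM_131291) works together with fgf8a in the hindbrain and in induction of the ear. It was at -1.82, -2.03 and -2.11 in MO and at -2.92, -2.84 and -2.78 in MP at 24 hpf. All 3 MO arrays were higher, by 0.865 ± 0.13 on average (SE, 1.82-fold; adjusted p = 0.000695, limma).

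Among the inhibitors, il17rd (NM_153660), a transmembrane protein that dampens the cascade below the receptor, changed most. Its levels were 2.54, 2.30 and 2.54 in MO and 0.703, 0.871 and 0.721 in MP at 24 hpf. The groups lay far apart, with a difference of 1.70 ± 0.1 (SE, 3.24-fold; adjusted p = 5.98e-06, limma), which ranked at 512 of 10351 genes by size. The highest MP array was more than 1 log2 unit below the lowest MO array. With scaling to control spots the difference was 1.26 (adjusted p = 0.00537, limma).

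The 2 Sprouty genes encode inhibitors that act at the level of Ras and Raf. The levels of spry4 (NM_131826) were 3.21, 3.15 and 3.16 in MO and 2.29, 2.37 and 2.26 in MP at 24 hpf. Those of spry2 (NM_001003842) were 1.54, 1.47 and 1.52 in MO and 0.910, 0.898 and 0.879 in MP. Both were higher on every MO array, and the replicates of each group lay close together. The change was 0.865 ± 0.077 for spry4 (SE, 1.82-fold; adjusted p = 4.64e-05, limma) and 0.613 ± 0.08 for spry2 (SE, 1.53-fold; adjusted p = 0.000354, limma).

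The phosphatase gene dusp6 (NM_194380), whose product removes phosphate from ERK, had the smallest of the 8 rises. It was at 3.09, 3.11 and 3.27 in MO and at 2.60, 2.59 and 2.65 in MP at 24 hpf. MO was higher on all 3 slides, by 0.503, 0.615 and 0.511, and the fitted change was 0.543 ± 0.082 (SE, 1.46-fold; adjusted p = 0.00079, limma).

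The target gene etv4 (NM_131425), an ETS factor also known as pea3, was at 2.69, 2.57 and 2.61 in MO and at 1.72, 1.03 and 1.48 in MP. The second MP array was the lowest, and the SD was 0.35 in MP against 0.06 in MO, but the groups did not overlap. The difference was 1.21 ± 0.16 (SE, 2.31-fold; adjusted p = 0.000347, limma), and the slides gave 1.66, 1.13 and 0.849.

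**Figure D2:**
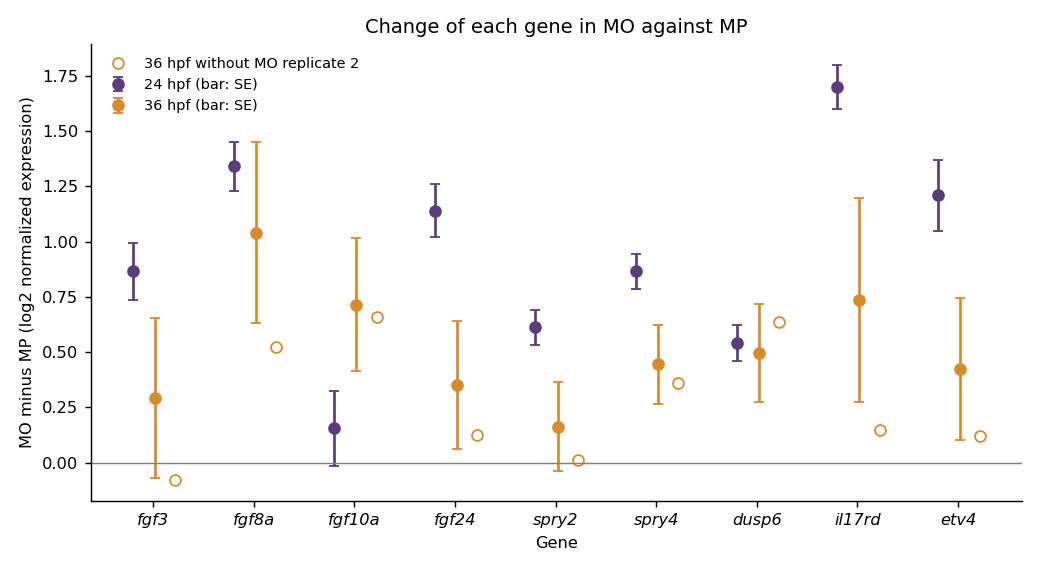
The difference of MO from MP in log2 normalized expression (y axis) for the 9 genes (x axis) at 24 hpf (purple) and 36 hpf (orange), with bars for the SE of the limma fit, and at 36 hpf without the second MO replicate (open circles). At 24 hpf the values run from 0.155 for fgf10a to 1.70 for il17rd. At 36 hpf all are above 0 with all arrays, with SEs of 0.18 to 0.46, and all are below 0 with scaling to control spots.

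At 36 hpf no gene of the 9 passed the threshold, where 6.37% of 9888 genes did (limma). Without adjustment 3 of them had p under 0.05, fgf8a, spry4 and fgf10a, where 21.3% of all genes did. The fitted differences of all 9 were above 0, with a median of 0.445 against 0.032 over all genes, and the groups were separate for fgf8a, spry4 and dusp6, against 29.3% of all genes. That sign depended on the scaling. With spiked-in control spots the median of all genes moved to -1.11 and all 9 differences fell below 0, though all 9 lay above that median. Without the second MO replicate none passed either, where 11.3% of genes did, the median of the 9 was 0.148 against 0.058 over all genes, 7 of the 9 lay above that of all genes, and the difference of fgf3 changed sign to -0.078.

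The largest fitted difference at 36 hpf was that of fgf8a. Its levels were -0.205, 1.27 and -0.320 in MO and -0.807, -0.786 and -0.769 in MP. All 3 MO arrays were above the MP arrays, but the second was as high as MO at 24 hpf and the other 2 were within the range of MP at 24 hpf. The difference was 1.04 ± 0.41 (SE; adjusted p = 0.195, limma) and 0.525 without that array (adjusted p = 0.104, limma). In fgf10a the levels were -2.14, -1.64 and -1.47 in MO and -2.73, -2.04 and -2.62 in MP, which overlapped, with a difference of 0.715 ± 0.3 (SE; adjusted p = 0.222, limma) that was 0.661 without the second MO replicate. The levels of fgf24 were -2.51, -1.66 and -2.16 in MO and -2.55, -2.23 and -2.60 in MP, and those of fgf3 were -3.15, -2.03 and -3.14 in MO and -2.93, -3.20 and -3.07 in MP. In fgf3 only the second MO replicate was above the MP arrays, and in fgf24 replicates 2 and 3 were, replicate 3 by a small margin. The differences were 0.35 ± 0.29 for fgf24 and 0.293 ± 0.36 for fgf3 (SE), and neither passed the threshold. Without the second MO replicate they were 0.126 and -0.078.

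The arrays of MO at 36 hpf were furthest apart for il17rd. Its levels were 0.621, 2.37 and 0.595 in MO and 0.601, 0.198 and 0.582 in MP at 36 hpf. A single MO array carried the difference of 0.736 ± 0.46 (SE; adjusted p = 0.4, limma), which was 0.148 without it. The same array was the highest of its group for spry2, at 1.41 against 0.973 and 0.942, where MP gave 0.988, 0.907 and 0.944. It was also the highest for etv4, at 2.47 against 1.49 and 1.62, where MP gave 1.48, 1.01 and 1.81. Without it the differences of spry2 and etv4 were 0.011 and 0.120, and on the other 2 MO arrays both genes lay within the range of MP.

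For 2 inhibitors the values of MO and MP at 36 hpf did not overlap. The levels of spry4 at 36 hpf were 2.42, 2.83 and 2.71 in MO and 2.22, 2.20 and 2.20 in MP. The difference was 0.445 ± 0.18 (SE; adjusted p = 0.198, limma) and 0.359 without the second MO replicate (adjusted p = 0.186, limma). For dusp6 they were 2.21, 2.06 and 2.74 in MO and 1.75, 1.96 and 1.81 in MP, and here the second MO replicate was the lowest of its group. The difference was 0.496 ± 0.22 (SE; adjusted p = 0.241, limma) and 0.635 without that array (adjusted p = 0.0726, limma). On the slides at 36 hpf, MO was above MP on all 3 for 4 of the 9 genes, fgf8a, spry4, dusp6 and il17rd, against 8 of 9 at 24 hpf. For il17rd the difference was only 0.013 on the slide of the third replicates. The share of all genes with MO above MP on all 3 slides was not computed, so these counts are a description only.

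Between 24 and 36 hpf only dusp6 passed the threshold in MP, where 21% of 10389 genes did (limma), and it decreased by 0.774 on the log2 scale (SE 0.16; adjusted p = 0.00603). The other 8 differences ran from -0.537 for fgf8a to 0.249 for fgf10a. In MP, fgf3, fgf8a, spry4, dusp6 and il17rd were each lower on all 3 arrays at 36 hpf than on any at 24 hpf, fgf3 by a small margin. The share of all genes separate in this way was not computed. For fgf8a the adjusted p was 0.263 with all arrays and 0.0044 in the fit without the second MO replicate (limma), where 36.6% of genes passed. All arrays of a time point shared their slides and scan day, so that time cannot be told apart from either.

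In MO, 6 of the 9 genes passed the threshold between the time points, where 25.2% of genes did (limma), 5 as lower and 1 as higher, where 13.1% and 12.1% of genes did. The largest fall was that of il17rd, with a log2 difference of -1.27 (adjusted p = 0.0272), and fgf3, fgf24, spry4 and dusp6 also fell, with log2 differences of -0.788, -0.728, -0.517 and -0.821. The fall of fgf3 was at the edge of the threshold (adjusted p = 0.0498). The ligand fgf10a rose, by 0.809 (adjusted p = 0.0307). With scaling to control spots none of the 9 passed in MO or in MP, the medians of all genes moved to -0.886 and -0.177, and fgf10a in MO was at -0.0080. The remaining values in MO, -0.843 for fgf8a, -0.399 for spry2 and -0.764 for etv4, did not pass. Without the second MO replicate at 36 hpf all 9 passed, where 45.6% of genes did, 8 as lower and fgf10a as higher, and il17rd gave -1.85. Other fits called fewer of the 9 and fewer of all genes. Without MO replicate 1, 2 or 3 at 24 hpf 2 of the 9 passed, where 13.3%, 15.6% and 13.6% of genes did. Without MO replicate 3 at 36 hpf 2 passed, where 16% of genes did, without MO replicate 1 at 36 hpf 3 did, against 22%, and a fit of only the 6 MO arrays gave 1, against 11.8%.

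The test of the difference itself, an interaction of treatment with time, was passed by none of the 9 genes with all arrays, where 1.55% of genes passed it (limma). Without adjustment 3 of the 9 had p under 0.05, fgf24, spry2 and spry4, where 15.2% of all genes did. All fitted interactions but that of fgf10a were below 0, which is a smaller excess of MO over MP at 36 hpf than at 24 hpf. Without the second MO replicate at 36 hpf, 7 of the 9 genes passed, where 15.6% of genes did. These were fgf3, fgf8a, fgf24, spry2, spry4, il17rd and etv4, with log2 interactions from -0.506 for spry4 to -1.55 for il17rd (adjusted p = 0.000776). For dusp6 it was 0.092 and for fgf10a 0.506, and neither passed. Whether the excess at 24 hpf differed from that at 36 hpf thus rested on 1 array.

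The order of the groups was similar for most genes. MO at 24 hpf had the highest mean in 8 of 9 genes, and its values were separate from the next group in 5, fgf24, spry2, spry4, dusp6 and etv4, where 13% of all genes had MO at 24 hpf highest and separate. In fgf3, fgf8a and il17rd it overlapped MO at 36 hpf through the second replicate of that group. The lowest mean was that of MP at 36 hpf in fgf3, fgf8a, spry4, dusp6 and il17rd, each time separate from the next group, where 9.37% of all genes had MP at 36 hpf lowest and separate. It was that of MP at 24 hpf in the other 4 genes, which overlapped its neighbor. For fgf10a the highest was MO at 36 hpf, and none of the neighbors in its order were separate.

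For 3 of the genes the array held several probes. Those of fgf8a gave like differences of MO from MP, 1.28 to 1.34 at 24 hpf and 1.01 to 1.25 at 36 hpf over 3 probes. Those of il17rd gave 1.70 to 1.92 at 24 hpf over 4 probes, and of spry4 0.865 to 1.00 over 3. Between the time points they did not always match. In MO the 3 probes of spry4 gave -0.517, 0.229 and -0.833 from 24 to 36 hpf, so the fall of spry4 was not shared by the dimmest probe, and with the mean of the probes it was -0.374 (adjusted p = 0.168, limma). The 4 probes of il17rd were all lower at 36 hpf in MO, at -2.02, -0.997, -1.27 and -2.13, and in MP they gave -1.31, 0.099, -0.304 and -0.969. The higher level of MO at 24 hpf was thus common to the probes of these genes, as was the fall of il17rd in MO, while the probes differed in sign for spry4 in MO and for il17rd in MP.

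The rest of the pathway did not stand out by its count of both directions together. Of 71 other Fgf pathway genes tested at 24 hpf, 34 passed the threshold, 25 of them higher in MO and 9 lower, which at 47.9% was near the 48.3% of all genes. Of all genes 24.3% passed as higher, and 50.4% of those called were higher, so the 25 of 34 leaned more to higher than all genes did. The median log2 difference of the 71 was 0.194. Of 8 other feedback inhibitors 7 passed, 6 as higher, with dusp2 at 1.66, spry1 at 1.41, dusp5 at 1.29 and dusp4 at 0.904. These encode MAP kinase phosphatases and a further Sprouty. The phosphatase gene dusp7 was lower, at -0.631.

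Of 16 other secreted ligands 7 passed at 24 hpf, 5 as higher. For this and the other pathway lists, the share of all genes at 24 hpf was 48.3%, and 24.3% as higher. The largest were fgf10b at 2.58 and fgf17 at 2.48, the latter a close relative of fgf8a that is made in the same tissues, followed by fgf18b at 1.23 and fgf2 at 1.05. The ligands fgf1a and fgf1b were lower, at -0.649 and -0.925. Of 14 receptors and coreceptors 8 passed, 7 as higher, among them the receptor genes fgfr1a at 0.768 and fgfr1b at 1.07 and the genes fgfrl1a and fgfrl1b at 1.20 and 0.874, which encode receptors without a kinase domain. The heparan sulfate proteoglycan gene gpc1a was lower, at -0.402. The receptor genes fgfr2, fgfr3 and fgfr4 did not pass, with values of 0.128, 0.011 and 0.240.

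Of 18 Ras and MAP kinase genes 5 passed at 24 hpf, where 48.3% of all genes did. Those higher were ptpn11b at 0.772, hrasa at 0.492 and raf1a at 0.435, and those lower were hrasb at -0.491 and grb2a at -0.470. Of 10 other target genes 5 passed, all as higher, with tbx16 at 3.96, fosab at 2.87, spry1 at 1.41 and ets1 at 0.806. The ETS genes closest to etv4 did not pass, with etv5a at -0.255, etv5b at 0.168 and etv1 at -0.184. The probe of etv1 was dim, with levels of -6.42 in MO and -6.24 in MP at 24 hpf, and was not tested at 36 hpf. Of 6 intracellular Fgf homologous factors, which are not secreted and bind sodium channels, 3 passed, each as lower, fgf13a at -1.21, fgf11a at -0.658 and fgf13b at -0.653. The probe of fgf11a was dim, with levels of -6.27 in MO and -5.62 in MP, and was not tested at 36 hpf. The other 3, fgf12a, fgf12b and fgf14, did not pass, with values of 0.027, 0.176 and 0.242.

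At 36 hpf, 2 of 64 other pathway genes passed, dusp5 as higher at 1.16 (adjusted p = 0.037, limma) and fgf13b as lower at -1.26 (adjusted p = 0.014, limma). This was 3.12% against 6.37% of all genes. Without the second MO replicate 5 passed, the same 2 with fgf1a, fgf17 and tbx16. In both comparisons the directions are those of the main scaling.

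**Figure D3:**
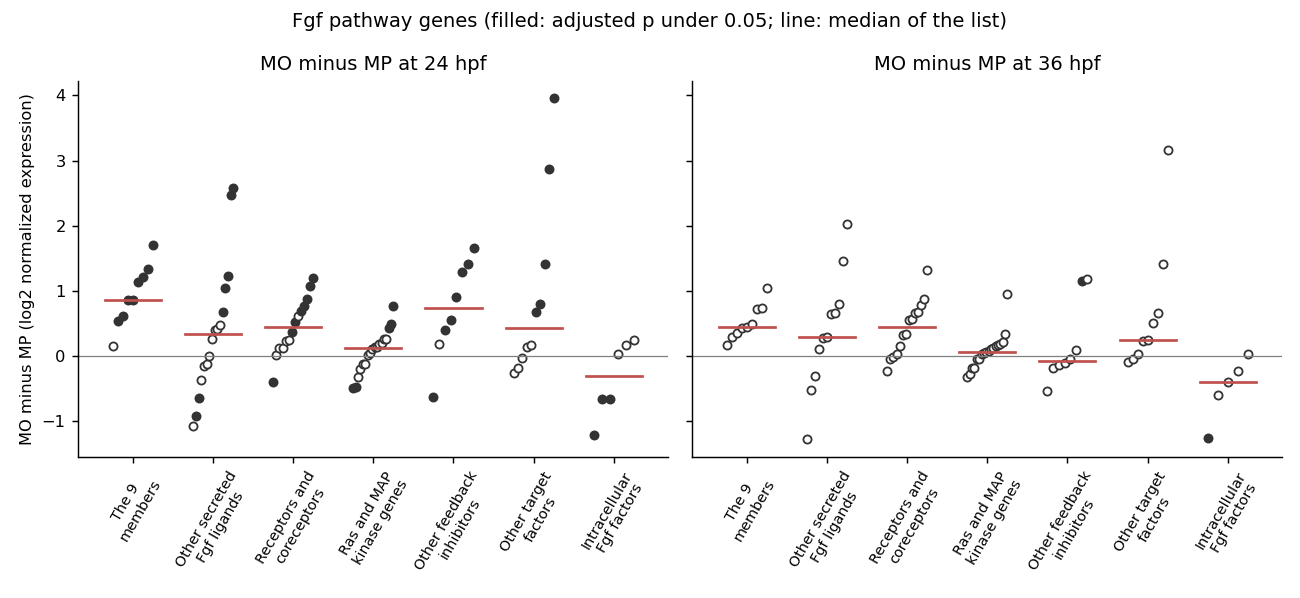
The difference of MO from MP in log2 normalized expression (y axis) at 24 hpf (left) and 36 hpf (right) for the 9 genes and for other Fgf pathway genes in 6 lists (x axis), each point a gene, filled where the adjusted p is under 0.05, with lines for list medians. At 24 hpf 8 of 9 and 34 of 71 are filled, and at 36 hpf 0 of 9 and 2 of 64, a gene in 2 lists being drawn in each. Directions are those of the main scaling, and with control spots the median of all genes moved to -0.427 and -1.11.

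Lists of genes of tissues that make or receive Fgf were read on the same arrays. The lists overlap, with sp5l, pax2a and hand2 among the genes counted in more than 1. Beside the counts of these lists and of the cell markers, 48.3% of all genes passed at 24 hpf, and 24.3% as higher. At 36 hpf 6.37% of all genes passed, or 11.3% without the second MO replicate. Genes of the tailbud and presomitic mesoderm, the tissue from which the trunk segments form, were higher in MO at 24 hpf in 14 of 15 cases, with a median of 2.91. They included tbx16 at 3.96, tbx6 at 3.44, tbx16l at 3.30 and wnt8a at 3.25. Of the 15 genes, 11 were well above background on all 12 arrays. Their summed level, on the linear scale, was 49.7 to 55.7 in MO and 20.8 to 21.9 in MP. This sum and those of the other lists are weighted to the brightest probes. In MP at 36 hpf, for example, bambia was at 2.93 and cdx1a at 2.04 on the log2 scale, against -3.67 for tbx6 and -5.77 for ripply2. At 36 hpf it was 24.5, 47.5 and 21.9 on the 3 MO arrays and 17.2 to 20.9 in MP, so that the second MO replicate again lay near MO at 24 hpf. There 6 of 14 genes passed, all as higher, with tbx6 at 4.27, ripply2 at 3.98, cdx4 at 3.41 and tbx16l at 3.30. Without that array 8 passed, all as higher, and the median difference of the list was 1.37. The levels of ripply2 in MP at 36 hpf, -5.77, and of wnt8a in MP at 24 hpf, -4.98, were low, so the sizes of their changes are less certain.

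Genes of the pectoral fin bud passed as higher in 10 of 15 cases at 24 hpf, led by prdm1a at 1.69, hoxa13b at 1.5, lef1 at 1.45 and sall4 at 1.34, and their sum was 48.6 to 50.3 in MO and 30.2 to 30.5 in MP. At 36 hpf none passed, with all arrays or without the second MO replicate, and the sums were 28.1, 51.2 and 28.2 on the MO arrays and 24.1 to 27.2 in MP. Of 15 genes of the otic vesicle 9 passed as higher at 24 hpf, among them stm at 1.18, foxi1 at 1.07, dlx3b at 0.815 and pax2a at 0.680. Their sum was 55.6 to 61.2 in MO and 42.0 to 43.3 in MP. At 36 hpf it was 42.6, 78.1 and 38.6 on the MO arrays and 34.2 to 39.5 in MP, so that the second MO replicate lay above MO at 24 hpf. At 36 hpf oc90, an otolith matrix gene, passed at 1.74 (adjusted p = 0.0083, limma), and without the second MO replicate 3 did, oc90, hmx3a and neurog1, 1 as higher and 2 as lower.

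Genes of the midbrain-hindbrain boundary were mixed. Of 14, 9 passed at 24 hpf, with her11 at 2.53, fgf17 at 2.48, sp5l at 1.73 and her5 at 1.61 among the 7 that were higher and the Engrailed genes en1a at -1.77 and en1b at -0.996 as lower. Their sum was 22.6 to 24.0 in MO and 17.3 to 19.2 in MP. At 36 hpf only sp5l, which is also counted in the tailbud list, passed with all arrays, at 2.29. Without the second MO replicate sp5l, fgf17 and her5 did, all as higher. Of 11 cardiac genes all passed at 24 hpf, and 9 were well above background on all 12 arrays. The regulators tbx20 at 3.17, gata5 at 1.56, gata4 at 1.54 and gata6 at 1.54 were among the 8 that were higher. The genes nppa at -1.38, myh6 at -0.883 and myl7 at -0.292, which encode a hormone and contractile proteins of heart muscle, were lower. Contractile genes went both ways, as myh7 was among those higher, at 0.484. The probe of tbx20 was dim in MP, at -6.86, and was not tested at 36 hpf, so the size of its rise is uncertain. That of nppa was dim in MO at 24 hpf, at -7.29, so the size of its difference is uncertain as well. At 36 hpf the lowest adjusted p of the list was 0.053, for gata6 (limma). Without the second MO replicate gata5 and gata6 passed as higher and nppa as lower. The cardiac sum was 15.3 on the second MO replicate at 36 hpf, above 11.7 to 12.9 in MO at 24 hpf.

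Markers of muscle, neurons, lens and pigment cells were mostly lower in MO on the same arrays. Those of blood and heart were mixed at 24 hpf. The fitted differences of the tested epidermis and notochord markers were all higher in MO at both times, in the main scaling. Of these only tp63 and tbxta passed, at 24 hpf. At 24 hpf gata1a at 0.997, tbxta at 0.763, tp63 at 0.511 and myh7 at 0.484 passed as higher. Among the blood and heart markers nppa at -1.38, from a dim probe, alas2 at -0.882, hbbe2 at -0.582 and myl7 at -0.292 passed as lower. At 36 hpf the heart marker cmlc1 passed as higher, at 1.06 (adjusted p = 0.027, limma). At 24 hpf 3 of 4 skeletal muscle markers, 3 of 3 neuron markers, 4 of 4 lens markers and 4 of 4 pigment cell markers passed the threshold as lower, and at 36 hpf 1, 2, 4 and 3 of them did, or 3, 2, 4 and 3 without the second MO replicate. The sum of 4 skeletal muscle markers was 67.2 to 86.9 in MO and 145 to 190 in MP at 24 hpf, and 191, 81.3 and 131 on the MO arrays and 345 to 395 in MP at 36 hpf. The sum of 4 lens markers was 1.41 to 1.77 in MO and 8.52 to 12.5 in MP at 24 hpf, and 11.8, 2.01 and 6.57 in MO and 54.4 to 75.6 in MP at 36 hpf. The second MO replicate at 36 hpf was the lowest of its group for both. The part of these differences in tissue and differentiation markers in the levels of the 9 genes was not tested.

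**Figure D4:**
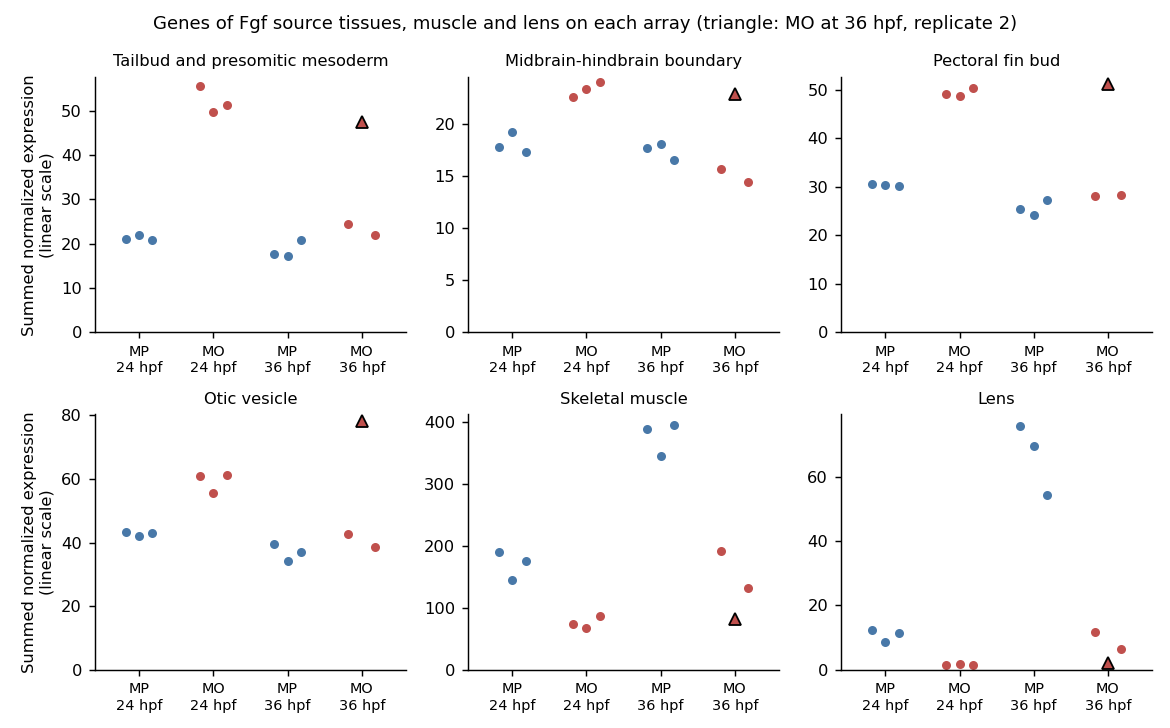
The summed normalized expression on a linear scale (y axis, from 0) of genes of 4 tissues that make or receive Fgf and of skeletal muscle and lens markers, on each of the 12 arrays, with MP in blue and MO in red at 24 and 36 hpf (x axis). For the tailbud list the second MO replicate at 36 hpf (triangle) is at 47.5, beside 49.7 to 55.7 in MO at 24 hpf, and for lens it is at 2.01, beside 1.41 to 1.77. For the otic vesicle it is at 78.1, above 55.6 to 61.2. Each sum is weighted to the brightest probes of its list.

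The profiles most like those of the 9 genes over the 12 arrays, by the root mean square difference of centered log2 levels among 10334 genes, were not those of one another. For fgf8a they were fkbp11 at 0.169 and hoxb7a at 0.177, where fgf8a itself had an SD of 0.785 over the arrays. For il17rd they were bmpr1ab at 0.190 and hoxa13b at 0.194, with an SD of 0.876. For etv4 they were dnajc5gb at 0.123 and tmem248 at 0.167. All of these distances are small beside the spread of the gene itself, but they are the smallest among 10334. The profiles nearest to fgf3 were those of prickle1b and zfand5a, to fgf24 those of ftr67 and hoxb10a, and to fgf10a those of txlng and rgs12b. Those nearest to spry2 were of notch2 and cpn1, to spry4 of ptpreb and lrrc59, and to dusp6 of noc4l and lratd2a. The measure describes likeness on these arrays only. It was not scaled to the spread of each gene, so genes that move together by different amounts are not near in it. The SD over the arrays ran from 0.264 for spry2 to 0.876 for il17rd. That no member was nearest to another therefore does not show that their profiles were unlike.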

How the data were processed

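RNA of pools of whole embryos was hybridized to single-color Agilent zebrafish V2 arrays, 12 in all. The probe intensity used is as deposited by the authors, from the scanner software Agilent Feature Extraction (version 10.5.1.1), which corrected the background. A table of intensity values that the authors processed further (a floor of 0.05 and, by the methods, a scaling of each chip to positive control genes brighter than 50 throughout) was an alternative.

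Intensities were floored at 0.05, outlier spots left out, each array divided by its median over all 19114 probes above 50 on all arrays, not over control spots, and log2 taken. Of 43603 probes, 16770 matched a symbol through their accession in the gene tables (assembly GRCz12tu, used for names alone because it is not the build of the array's annotation), and 15772 of them were for 10915 named genes. For 3907 genes with several probes the brightest was used. Tests took in genes whose probe exceeded background clearly, by the scanner's call, on all 3 arrays of at least 1 group.

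Each time point had its own fit of MO and MP (R 4.3.3, limma 3.58.1, lmFit and eBayes with a trend), as the study did not compare time points. The time comparisons and the interaction came from a fit of 4 group means on 12 arrays. P-values were adjusted by Benjamini-Hochberg over all genes, with a threshold of 0.05. The fits were tested on simulated data with 200 genes changed and 1 spread per gene for all groups. They recovered 141 to 191 of the 200, with mean estimates of 1.97 to 2.05 and 3 to 12 false calls. The simulation had neither the wider spread of MO at 36 hpf nor as many changed genes as were called here, so it does not cover those conditions. Python 3.11.15 with matplotlib 3.10.9 drew the figures, and the R package data.table (version 1.17.8) read the files. The members and lists were chosen with earlier results of these data known. All 9 members were named. Of other list genes the text names those past the threshold whose groups did not overlap, at most the 4 largest in each direction, and for each member the 2 nearest genes. The etv5 and etv1 genes, fgfr2, fgfr3 and fgfr4, and myh7 among the cardiac genes were named after their values were seen. Replicate numbers did not pair the samples. The number of arrays limits the precision, and depth does not apply. Alternatives were other scalings, background correction, floor, filters, probe choice, tests, blocks, the table of the authors, and leaving out single arrays.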

Additional observations from a re-analysis of the deposited data

How the results depend on the processing

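At 24 hpf the members called numbered 8 under every alternative except scaling to positive control spots, which gave 1, and 8 with each array left out. At 36 hpf they numbered 0 except in the single fit of all 12 arrays, which gave 2, fgf8a and spry4, where 19% of all genes passed. Between the time points the count in MP was 0 with positive control spots and 2 in a fit of the 6 arrays compared, and 1 to 2 with an array left out. In MO it was 0 with positive control spots and 1 in a fit of the 6 arrays compared, and 2 to 9 with an array left out. The interaction was passed by 0 to 7 members with an array left out, the 7 without the second MO replicate at 36 hpf. The cause of these shifts was not tested.

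Scaling to positive control spots turned the difference of MO from MP at 36 hpf for all members, to -0.843 (fgf3), -0.100 (fgf8a), -0.422 (fgf10a), -0.787 (fgf24), -0.974 (spry2), -0.691 (spry4), -0.640 (dusp6), -0.401 (il17rd) and -0.712 (etv4), and for fgf10a also the difference at 24 hpf to -0.280, the time difference in MO to -0.0080 and the interaction to -0.142. From 24 to 36 hpf in MP it gave -0.051 for fgf24, -0.064 for spry2 and -0.094 for etv4. There etv4 was also turned by the 75th percentile (-0.0086) and quantile normalization (-0.0044), and spry2 by normexp (-0.026). With an array left out, 4 values spanned 0, with ranges of -0.247 to 0.092 for the interaction of dusp6, -0.168 to 0.234 for etv4 and -0.050 to 0.132 for fgf24 from 24 to 36 hpf in MP, and -0.078 to 0.482 for fgf3 at 36 hpf. The share of called genes that were higher at 24 hpf was 50.4%, and 20.2% with positive control spots. At 36 hpf it was 30.3% and 0%, and over all genes the calls there were 630 and 149.

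Other pathway genes called at 24 hpf numbered 34, 14 with positive control spots, 15 in the single fit of all arrays, and 28 to 36 with an array left out. At 36 hpf they numbered 2, against 0 with positive control spots, the methods' t-test (on the log2 or the linear scale) and the slide as a block, 1 with normexp, with the floor after scaling and with the replicate block, 7 in the single fit, and 0 to 5 with an array left out. With the replicate number as a block, 8, 0, 1 and 5 members were called at 24 hpf, at 36 hpf, over time in MP and over time in MO, where fgf3 had adjusted p = 0.0649 (limma). Samples of like number did not deviate together, with correlations over genes of -0.22 to 0.094, and the block moved the count of all genes at 36 hpf from 630 to 226. A block for the half-day of scanning at 24 hpf, chosen after seeing the data, left 8 members called.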
